A study of Mus musculus with 778 samples.

Results

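Pluripotency and early germ cell genes were followed through the growth of single mouse oocytes. The group held 10 genes, *Pou5f1*, *Sall4*, *Lin28a*, *Tfap2c*, *Prdm1*, *Prdm14*, *Nanos3*, *Dppa4*, *Dppa5a* and *Klf4*. They were taken by name, and all 10 were found among the 23201 genes of the single-cell RNA-seq count table. The question was which of these regulators remained after an oocyte had entered growth.

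All oocytes came from ovaries of wild-type female mice of the ICR strain and were sorted into 5 stages by diameter alone, with no marker gene or reporter. Non-growing oocytes (NGO) were under 20 μm across and came from mice 3 to 4 days old. Growing oocytes (GO) came from mice 3 to 4 weeks old and measured 30 to 45 μm (GO1), 50 to 55 μm (GO2) or 60 to 65 μm (GO3), and fully-grown oocytes (FGO), from mice of that age too, measured over 70 μm. Growth and mouse age can therefore not be told apart in any comparison with NGO. The table held 46 NGO, 51 GO1, 26 GO2, 44 GO3 and 56 FGO cells. Each molecule carried a unique molecular identifier (UMI), so that amplified copies of 1 molecule were counted once.

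*Pou5f1* (Oct4), *Sall4* and *Klf4* encode transcription factors of pluripotent cells, and *Lin28a* encodes an RNA-binding protein that blocks maturation of let-7 microRNAs. *Prdm1* (Blimp1), *Prdm14* and *Tfap2c* (AP2γ) encode the regulators that set aside primordial germ cells from the epiblast, and *Nanos3* encodes an RNA-binding protein that keeps those cells alive during migration. *Dppa4* and *Dppa5a* encode a nuclear protein and a KH-domain protein that are markers of pluripotent and germ cells. An oocyte leaves the resting pool of primordial follicles when it starts to grow, and it then builds a store of maternal RNA that serves the early embryo.

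Promoter windows of 300 bases, from 250 before to 50 after the annotated start of transcription, were read from RefSeq (GRCm38.p6) for the 5 members with an entry, namely *Pou5f1*, *Lin28a*, *Prdm1*, *Nanos3* and *Klf4*. The windows of *Pou5f1* (chr17:35505782-35506081, plus strand), *Lin28a* (chr4:134018767-134019066, minus strand) and *Prdm1* (chr10:44458699-44458998, minus strand) are shown because these genes stand for the patterns described further on, a fall at the entry into growth, a level that depended on how cells were weighted, and a low level with its highest value in GO1. Each sequence is written 5′ to 3′ on the strand of its gene. Capitals mark 3 motifs searched on both strands, the GC box GGGCGG, the nuclear receptor half-site AGGTCA and the E-box CANNTG.
Pou5f1: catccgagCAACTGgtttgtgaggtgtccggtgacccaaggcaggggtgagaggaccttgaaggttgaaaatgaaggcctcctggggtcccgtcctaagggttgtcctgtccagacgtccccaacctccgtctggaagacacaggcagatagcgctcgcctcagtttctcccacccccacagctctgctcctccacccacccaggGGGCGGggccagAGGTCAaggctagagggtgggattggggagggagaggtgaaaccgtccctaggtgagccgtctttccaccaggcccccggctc
Lin28a: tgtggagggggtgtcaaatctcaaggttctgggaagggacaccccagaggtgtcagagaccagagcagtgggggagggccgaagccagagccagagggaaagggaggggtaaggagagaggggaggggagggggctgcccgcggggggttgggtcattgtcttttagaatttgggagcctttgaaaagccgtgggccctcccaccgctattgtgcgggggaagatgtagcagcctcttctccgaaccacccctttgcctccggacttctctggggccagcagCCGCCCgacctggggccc
Prdm1: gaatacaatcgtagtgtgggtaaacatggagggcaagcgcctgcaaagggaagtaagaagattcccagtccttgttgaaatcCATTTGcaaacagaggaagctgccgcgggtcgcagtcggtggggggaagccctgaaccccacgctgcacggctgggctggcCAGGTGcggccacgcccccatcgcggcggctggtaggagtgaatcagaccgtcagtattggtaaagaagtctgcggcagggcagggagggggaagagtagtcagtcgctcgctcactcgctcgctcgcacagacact
RefSeq holds a second *Pou5f1* window (chr17:35508557-35508856, plus strand), not shown here, with 2 E-boxes, no GC box, no half-site and a GC content of 45.7%. In the *Pou5f1* window shown the E-box, GC box and half-site stood in this order, the GC box starting 45 bases and the half-site 33 bases before the start. The *Lin28a* window held 1 GC box on the opposite strand, and the *Prdm1* window held 2 E-boxes and no GC box. Of 32851 RefSeq promoter windows of this length, 35.7% held a GC box, 16.3% the half-site and 72.3% an E-box. The letters TATAAA, found in 13.6% of all windows, were in none of these 3. The GC content was 62.7% for the *Pou5f1* window shown, 63.3% for *Lin28a* and 59.7% for *Prdm1*, against a median of 52.7% over all windows. A match of letters is a description and no sign of binding.

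Levels are given as UMIs of a gene per 1000000 UMIs of its stage (CPM), with all cells of the stage added up. Such a share does not give the number of transcripts in an oocyte, and levels were compared between stages and not between genes. Stage totals ran from 24976634 UMIs in GO2 to 64311908 in FGO, and single cells from 22279 to 3898137 UMIs. In GO1 80.4% and in GO2 73.2% of all UMIs lay in the 10 deepest cells, against 42.6% to 49.7% elsewhere, so the mean over cells of each cell's own CPM is given where it differs. The names of the cells carry no library, and 4 libraries were made. A stage was therefore 1 pooled sample without replicates, differences between stages have no test, and all intervals (95%, exact) cover counting error only. A change between stages means here a difference of 2-fold or more with 10 CPM or more in the stage with the higher level. A gene counts as kept in a growth stage when it had at least 10 CPM there and lay less than 2-fold below NGO. All 13 oocyte markers examined reached 10 CPM in every stage. The summed level of 16 granulosa markers was 24.7 CPM in NGO and 47.4 to 55.1 CPM in the other stages, with *Amh* and *Foxl2* at 0.233 CPM or less throughout. Of those markers, 3 reached 10 CPM in some stage, *Cyp19a1* (1.11 CPM in NGO and 16.3 in GO1), *Nr5a2* (6.91 and 14.5) and *Krt8* (25.9 in FGO). That of 11 theca and stroma markers was 14.6 CPM in NGO and 2.65 to 7.53 CPM later, and 1 NGO cell reached 260.3 CPM. The 9 blood markers summed to 4.14 to 7.73 CPM. Of 6 endothelial markers, *Pecam1* was the one past 10 CPM, with 4.60, 37.6, 40.4, 48.8 and 26.7 CPM from NGO to FGO. *Tek* had 3.29 CPM in NGO and 4.19 in GO1, and *Kdr* 0 and 1.27. *Emcn* and *Vwf* had 0.198 CPM or less, and *Cdh5* 1 UMI or none in each stage.

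In the sums, at the entry into growth from NGO to GO1, *Pou5f1* fell and *Sall4* rose, and 4 members, *Lin28a*, *Tfap2c*, *Dppa4* and *Dppa5a*, were kept. *Prdm1*, *Prdm14*, *Nanos3* and *Klf4* stayed under 10 CPM in both stages and were called low in both. In all, 2 of the 10 members counted as changed, where 46.3% of the 8527 genes that reached 10 CPM did so. Of the 6 members that reached 10 CPM, those 2 are a share not above that of genes at large. In FGO, *Pou5f1* and *Dppa4* were below their NGO levels past the limit and *Sall4* above, 3 of the 6 members that reached 10 CPM, where 27.3% of 8132 such genes changed between NGO and FGO. The same 3 of 6 members were past the limit in GO3, where 42% of 8336 genes changed, with *Dppa4* past it in the sums but not with DESeq2 or TMM factors. Between NGO and GO2 the members past the limit were *Sall4*, *Pou5f1* and *Dppa5a*, 3 of 6, where 47.2% of 8299 genes changed. NGO is the shared reference of these comparisons, so they are not independent of each other.

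**Figure D1:**
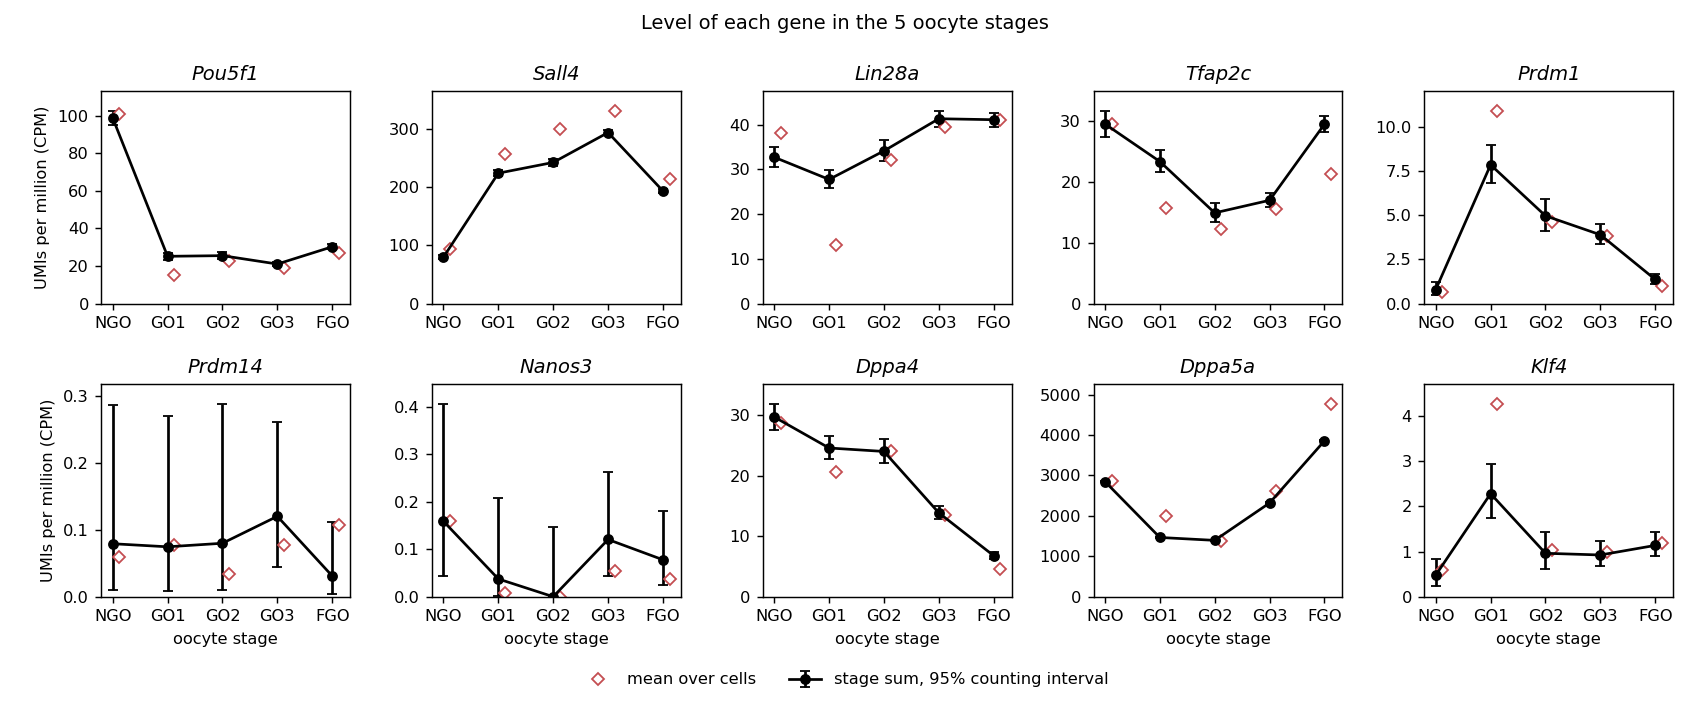
Level of each of the 10 genes (y axis, CPM; each panel has its own scale from 0) in the 5 oocyte stages (x axis). Filled circles are stage sums with 95% counting intervals and open diamonds are means over cells; *Pou5f1* is highest in NGO (98.8 CPM), *Sall4* is lowest there (79.8 CPM), *Dppa4* is lowest in FGO (6.78 CPM), and *Prdm14* and *Nanos3* stay under 0.2 CPM.

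*Pou5f1* (NCBIM37, the mm9 build, chromosome 17, 35642982 to 35647721, plus strand) was the member that fell at the entry into growth. In the order NGO, GO1, GO2, GO3 and FGO, which holds for all such series of values here, its levels were 98.8, 25.2, 25.5, 21.1 and 30.3 CPM, from 2490, 674, 638, 1050 and 1946 UMIs. The fall into GO1 was 3.92-fold (3.60 to 4.28). After that step no stage differed from the one before it by 2-fold, and FGO remained 3.27-fold (3.08 to 3.47) below NGO. The counting intervals of GO1 and GO2 overlapped, and the other neighbours in the order of levels were apart.

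The cells of NGO and of the later stages overlapped in part. *Pou5f1* ran from 32.5 to 198 CPM in single NGO cells, with a median of 99.4, and every one of the 46 cells had a UMI. From GO1 onwards the medians were 14.6, 23.5, 17.4 and 22.9 CPM. None of the 177 cells of the growing and fully-grown stages reached the NGO median, and the highest of them, an FGO cell, had 68.6 CPM. Those at or above the lowest NGO cell numbered 6 of 51 GO1, 7 of 26 GO2, 6 of 44 GO3 and 19 of 56 FGO cells. The transcript was therefore lower and still present, with a UMI in 38 of 51 GO1 cells and in all but 1 cell each of GO2, GO3 and FGO. When every cell was thinned to 20000 UMIs, 84.8% of NGO cells (71.1% to 93.7%) and 25.5% of GO1 cells (14.3% to 39.6%) kept a UMI, and 20.5% to 42.3% of the cells of later stages did.

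The size of the *Pou5f1* fall depended on the weight given to deep cells, and its direction did not. In GO1, the 10 deepest cells had 28.2 CPM and the other 41 cells 12.8 CPM, and 1 cell held 182 of the 674 UMIs. The mean over cells was 101.04 CPM in NGO and 15.3 CPM in GO1, a fall of 6.63-fold. Reads of processed copies can be mistaken for those of the gene, and the 5 *Pou5f1* retrocopies in the table had at most 8 UMIs in any stage.

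*Sall4* (chromosome 2, 168573832 to 168593443, minus strand), whose zinc finger protein occurs in pluripotent cells, germ cells and oocytes, was the member that rose. Its levels were 79.8, 224, 243, 294 and 194 CPM, from 2012, 5996, 6059, 14645 and 12447 UMIs. The rise into GO1 was 2.81-fold (2.67 to 2.95), and GO3 was 3.68-fold (3.51 to 3.86) above NGO. From GO3 to FGO the level was 1.52-fold lower (1.48 to 1.56), under the 2-fold limit. The counting intervals of all 5 stages were apart.

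Every cell of every stage had a *Sall4* UMI. The medians over cells were 79.4, 236, 255, 294 and 193 CPM. Cells ran from 23.3 to 391 CPM in NGO, 44.9 to 713 in GO1, 166.5 to 638 in GO2, 115.4 to 1185 in GO3 and 61.98 to 632 in FGO. The ranges overlapped, yet 48 of 51 GO1, 26 of 26 GO2, 44 of 44 GO3 and 52 of 56 FGO cells lay above the NGO median. The highest NGO cell, at 391 CPM, rested on 38 UMIs in a shallow cell of 97264. The step into GO1 was 2.81-fold in the sums, and the mean over cells gave 94.6 and 257 CPM, so it did not hang on the deep GO1 cells. The *Sall4* locus overlaps *Gm14261* on the opposite strand, and whether counting used strand is not given in the sources used here.

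**Figure D2:**
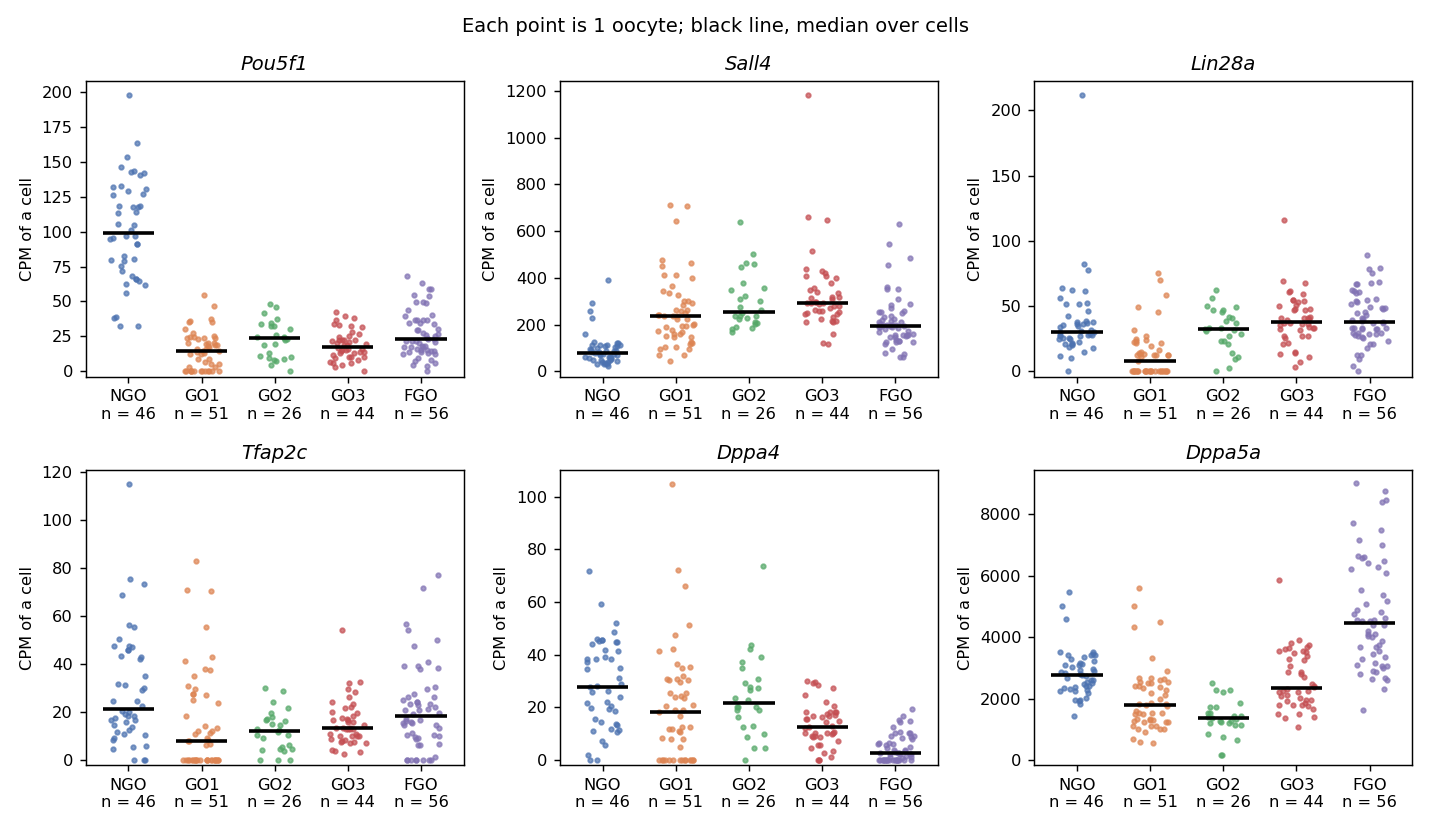
CPM in single oocytes (y axis; each point is 1 cell, black lines are medians) by stage (x axis) for the 6 members that reached 10 CPM in the stage sums. No cell of the later stages reaches the NGO median of *Pou5f1* (99.4 CPM), all GO2 and GO3 cells lie above that of *Sall4* (79.4 CPM), and no FGO cell lies above that of *Dppa4* (27.9 CPM).

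*Lin28a* (chromosome 4, 133559245 to 133574756, minus strand) was kept in the stage sums, and its level in GO1 depended on the weighting. Its levels were 32.7, 27.8, 34.2, 41.3 and 41.1 CPM, and GO1 was 1.18-fold (1.07 to 1.30) below NGO. The counting intervals of GO3 and FGO overlapped, as did those of GO2 and NGO. As the mean over cells, NGO had 38.1 CPM and GO1 13.1 CPM, which was 2.91-fold lower and past the limit, and GO2 was back at 32.1 CPM, 2.45-fold above GO1.

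The difference between these measures lay within GO1. Its 10 deepest cells had 31.5 CPM of *Lin28a* and its other 41 cells 12.4 CPM. The cell medians were 30.3, 7.95, 32.7, 37.9 and 37.99 CPM, and 45 of 51 GO1 cells lay below the NGO median. A UMI was found in 26 of 51 GO1 cells (50.98%, 36.6% to 65.2%) and in at least 95% of cells in each other stage. GO1 cells were also the shallowest, with a median of 110146 UMIs against 540432 or more in each other stage, and thinned shares at this low level give no order. Whether depth or the cells themselves set the GO1 value was not tested. *Lin28a* overlaps *Gm13061* on the opposite strand.

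*Tfap2c*, which encodes a factor of germ cell specification, was kept in every growth stage in the sums, which also placed its lowest levels in mid growth. The first reading depended on how cells were weighted. The second held in the mean over cells, with 15.8, 12.2, 15.6 and 21.2 CPM from GO1 to FGO. It did not hold without the 10 deepest cells of each stage. Its levels were 29.5, 23.3, 14.9, 16.96 and 29.5 CPM from 743, 624, 372, 845 and 1894 UMIs. GO2 was 1.98-fold (1.75 to 2.25) below NGO, just inside the limit, and FGO stood 1.74-fold (1.60 to 1.89) above GO3. NGO and FGO overlapped in their counting intervals.

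Over single cells *Tfap2c* spread widely within each stage. Its cell medians were 21.4, 7.98, 12.1, 13.3 and 18.1 CPM, and the NGO cells ran from 0 to 115.3 CPM. The mean over cells was 29.4 CPM in NGO and 12.2 CPM in GO2, 2.41-fold lower, so that by this measure *Tfap2c* fell past the limit in GO2. In GO1 the 10 deepest cells had 26.3 CPM and the other 41 cells 11.1 CPM. Without the 10 deepest cells of each stage, GO1 was the lowest stage and past the limit, with 31.1 CPM in NGO and 11.1 CPM in GO1. Thinned cells gave 34.8 and 13.7 CPM, also past the limit. The FGO level also leaned on deep cells, with 37.4 CPM in the 10 deepest and 21.6 CPM in the other 46. In each stage some cells lay above and some below the NGO median, 23 and 33 of the 56 FGO cells.

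*Dppa4* (chromosome 16, 48283848 to 48294405, plus strand) was kept in early growth and fell in late growth. From stage to stage it had 29.7, 24.6, 24.02, 13.9 and 6.78 CPM, counted from 749, 658, 600, 691 and 436 UMIs. It was the 1 of 6 members at 10 CPM or more that changed from GO3 to FGO, 2.05-fold lower (1.81 to 2.31), a step at which 5.96% of 7622 genes changed, and that interval reaches below 2-fold. FGO was 4.38-fold (3.89 to 4.95) and GO3 2.14-fold (1.93 to 2.38) below NGO. With DESeq2 size factors NGO and GO3 had 27.3 and 14.1 normalized CPM, less than 2-fold apart, and in thinned cells so were GO3 and FGO, with 6.82 and 3.57 CPM. No other member had its lowest stage sum in FGO among those that reached 10 CPM.

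The fall of *Dppa4* was seen across the FGO cells. Their median was 2.63 CPM and their highest value 19.5 CPM, so that 0 of 56 cells lay above the NGO median of 27.9 CPM. In GO3, 4 of 44 cells lay above that median, and in GO1 16 of 51. The share of cells with a UMI was 95.7% in NGO, 93.2% in GO3 and 66.1% in FGO, although FGO cells were deeper than NGO cells at the median, with 792312 against 540432 UMIs. The mean over cells gave 28.7, 20.6, 24.1, 13.5 and 4.52 CPM, in which GO2 was above GO1.

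*Dppa5a* (chromosome 9, 78214859 to 78215984, minus strand) was present in every cell, with its low point in GO1 and GO2. Its levels were 2848, 1465, 1393, 2319 and 3855 CPM, from 71766, 39203, 34803, 115514 and 247921 UMIs. GO1 was 1.94-fold (1.92 to 1.97) and GO2 2.04-fold (2.02 to 2.07) below NGO, so that it was kept in GO1 and lowered in GO2 by values close to the limit. With DESeq2 size factors NGO and GO2 had 2612 and 1568 normalized CPM and were less than 2-fold apart. In the sums GO3 was 1.66-fold above GO2 and FGO 1.66-fold above GO3, and FGO was 1.35-fold (1.34 to 1.36) above NGO.

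Single cells followed the same course. The *Dppa5a* medians were 2782, 1804, 1360.1, 2345 and 4458 CPM, with a range of 1439.8 to 5485 CPM in NGO and 1621 to 9012 CPM in FGO. None of 26 GO2 cells lay above the NGO median, whereas 51 of 56 FGO cells did and 17 exceeded the highest NGO cell. In GO1 the 10 deepest cells had 1291 CPM and the others 2184 CPM, and the mean over cells, 1997 CPM, was 1.43-fold below NGO. These counts carry an uncertainty, because the transcript of *Dppa5b* (chromosome 9, 78093301 to 78094403, plus strand) is 98.3% identical over 585 aligned bases. *Dppa5b* is not among the genes of the count table, and how reads of the pair were assigned was not examined.

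**Figure D3:**
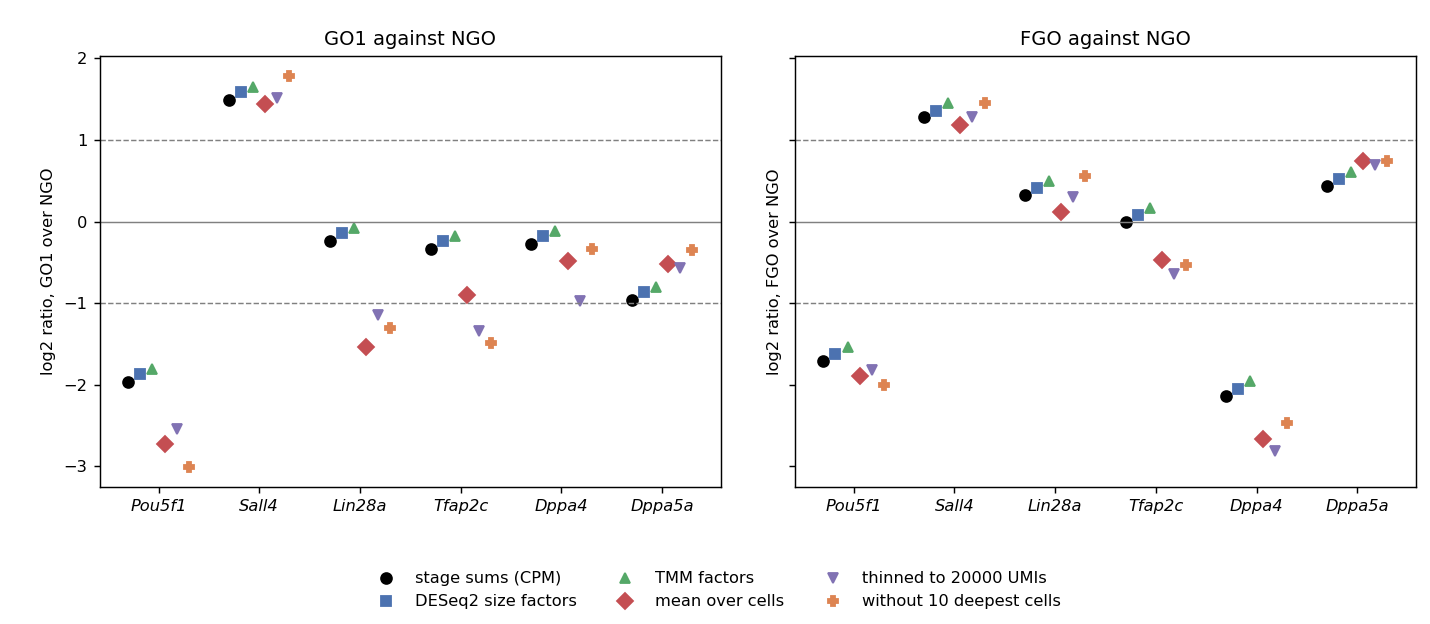
Log2 ratio of GO1 over NGO (left) and of FGO over NGO (right) on the y axis for the 6 members that reached 10 CPM in the sums (x axis), under 6 ways of scaling or weighting the cells; dashed lines mark 2-fold. *Pou5f1* stays below and *Sall4* above the dashed lines in both panels, *Dppa4* passes the lower line in FGO only, and in GO1 *Lin28a* crosses it in the mean over cells, in thinned cells and without the 10 deepest cells, and *Tfap2c* in thinned cells and without the 10 deepest.

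Of the regulators that found the germ line, *Prdm14* and *Nanos3* were near the limit of detection, and *Prdm1*, like the pluripotency factor *Klf4*, was detected but under 10 CPM in the sums of every stage. *Prdm14* (chromosome 1, 13103538 to 13117244, minus strand) had 2, 2, 2, 6 and 2 UMIs, found in 2 cells of each stage. *Nanos3* (chromosome 8, 86697632 to 86700451, minus strand) had 4, 1, 0, 6 and 5 UMIs, and the 0 in GO2 allows, at 3 counts, a level of up to 0.120 CPM and a share of cells with a UMI of up to 11.5%. No fold between stages is given for either gene, and 5 of the 6 UMIs of each in GO3 came from 1 cell. In NGO *Prdm14* lay under the level of 3 UMIs, 0.119 CPM, and *Nanos3* just above it at 0.159 CPM (0.043 to 0.406), and these data hold no stage before it.

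*Prdm1* (chromosome 10, 44156983 to 44248307, minus strand) was low in both stages by the rule, yet was not flat. It had 0.794, 7.85, 4.96, 3.89 and 1.37 CPM, from 20 UMIs in NGO, 210 in GO1 and 88 in FGO. GO1 stood 9.89-fold (6.24 to 16.5) above NGO and FGO 2.85-fold (2.20 to 3.70) below GO3, both at levels under 10 CPM and so not counted as changed. The share of cells with a UMI was 21.7% in NGO (10.9% to 36.4%), 54.9% in GO1 (40.3% to 68.9%), and 80.8%, 81.8% and 37.5% in the stages after it. The GO1 level was alike in deep and other cells, with 7.85 CPM in the 10 deepest and 7.83 CPM in the others. Most of the counts lay in the deep cells, 169 UMIs against 41.

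As the mean over cells, *Prdm1* reached 10.9 CPM in GO1 against 0.658 in NGO, 16.6-fold higher and past the limit. With *Pou5f1*, *Sall4* and *Lin28a*, 4 of the 7 members at 10 CPM or more changed from NGO to GO1 by that measure, where 56.6% of 8539 genes did. That mean rests partly on shallow cells, the highest of which had 89.8 CPM from 2 UMIs among 22279. The highest NGO cell had 6.53 CPM, and 21 of 51 GO1 cells lay above it. The summed granulosa markers moved in the same direction between these stages, from 24.7 to 55.1 CPM. Within GO1 the median granulosa sum was 45.1 CPM in the 28 cells with a *Prdm1* UMI and 47.4 CPM in the 23 without, and the cells with one were deeper, with median totals of 255923 and 73158 UMIs. Within FGO it was 43.9 CPM in cells with a *Prdm1* UMI and 26.9 CPM in those without, with median totals of 1868460 and 476259 UMIs. In the same order it was 21.2 and 22.1 CPM in NGO, 38.7 and 34.2 in GO2, and 45.3 and 45.2 in GO3. The part of granulosa RNA or of depth in the *Prdm1* counts was not tested.

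*Klf4* (chromosome 4, 55540013 to 55545347, minus strand) had 12, 61, 24, 46 and 73 UMIs, or 0.476, 2.28, 0.961, 0.923 and 1.14 CPM. GO1 was 4.79-fold (2.55 to 9.77) above NGO at levels under 10 CPM. A UMI was found in 14 of 51 GO1 cells, where the highest value, 82.98 CPM, came from 2 UMIs. In GO1 the median granulosa sum was 59.7 CPM in cells with a *Klf4* UMI and 40.5 CPM in those without, and the cells with one were deeper, with median totals of 491488 and 84725 UMIs. The part of granulosa RNA or of depth in the *Klf4* counts was not tested.

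Between the growing stages no member passed the limit in the sums. From GO1 to GO2 3.14% of 7356 genes did, and from GO2 to GO3 4.35% of 7334 genes. At such shares, no call among 6 members does not set them apart from genes at large. From GO2 to GO3 *Dppa4* was 1.73-fold lower and *Dppa5a* 1.66-fold higher. At that step in thinned cells, *Pou5f1* fell from 26.9 to 12.5 CPM and *Dppa4* from 23.1 to 6.82, and *Lin28a* rose from 15.4 to 46.6. These passed the limit, where 15.99% of genes did. A thinned level rests on few UMIs, since 1 UMI stood for 1.92 CPM in GO2 and 1.14 CPM in GO3. Without the 10 deepest cells *Dppa4* passed the limit from GO2 to GO3, with 7.54% of genes. With the mean over cells, *Lin28a* rose and *Prdm1* fell from GO1 to GO2, 2 of 7 members where 16.5% of 7356 genes changed by that measure. The median number of members with a UMI in a cell was 6, 5, 7, 7 and 6, and 4, 3, 3, 3 and 3 once every cell was thinned to 20000 UMIs.

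Genes of the wider pluripotency network that reached 10 CPM at the entry into growth moved both ways. Of all 23201 genes in the table, 8527 reached 10 CPM in NGO or GO1. Of the 26 network genes, 15 did not, among them *Sox2*, the partner of Oct4, at 1.12 CPM or less. Of the other 11, 3 rose (*Esrrb*, *Dppa2* and *Rif1*), 4 fell (*Stat3*, *Trim71*, *Tfcp2l1* and *Zfp281*) and 4 did not pass the limit. Over all 8527 genes tested, 46.3% changed in the sums, where 20.6% rose and 25.7% fell, or 1758 and 2193 genes. With DESeq2 factors 1946 rose and 1936 fell, and with TMM factors 2043 and 1797. The median log2 ratio of the 11 network genes was −0.89 in the sums against −0.15 over all 8527 genes. In the mean over cells it was −0.37 against −0.36. *Esrrb*, which encodes an orphan nuclear receptor, rose from 4.17 to 22.7 CPM and stayed at 22.8 to 29.9 CPM. *Dppa2*, whose protein binds that of *Dppa4*, had 59.6, 201, 207, 221 and 95.3 CPM, a 3.37-fold rise (3.18 to 3.57) into GO1, where *Dppa4* was 1.21-fold lower (1.09 to 1.34). *Stat3*, the transducer of LIF signals, fell from 576 to 124.4 CPM, and *Trim71*, an RNA-binding target of let-7, from 93.7 to 26.2 CPM. As the mean over cells *Stat3* had 593 and 45.4 CPM, 13.1-fold lower, and *Trim71* 104.1 and 14.8 CPM, 7.04-fold lower. *Nanog* had 27.9 CPM in NGO and 15.1 in GO1, 1.85-fold lower (1.63 to 2.10), and 8.85 to 13.6 CPM later. By the mean over cells it had 32.2 and 28.7 CPM, 1.12-fold lower, and 15.6, 9.61 and 21.8 CPM in GO2, GO3 and FGO.

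Genes of germ cell specification and identity moved both ways. Of 25 genes, 9 did not reach 10 CPM, 5 rose into GO1 (*Tfap2b*, *Ifitm3*, *Nanos2*, *Smad1* and *Pum2*), 6 fell (*Rbm46*, *Ddx4*, *Prmt5*, *Mael*, *Tdrd5* and *Elavl2*) and 5 did not pass. By the mean over cells *Elavl2* and *Smad1* did not pass and *Cbfa2t2* fell. Over all genes tested, 46.3% changed in the sums, with 20.6% higher and 25.7% lower. The median log2 ratio of the list was 0.03 in the sums and −0.36 in the mean over cells, against −0.15 and −0.36 over all genes tested. *Tfap2b*, a paralogue of *Tfap2c*, rose from 9 to 378 UMIs, or from 0.357 to 14.1 CPM, reached 20.5 CPM in GO2 and was at 0.731 CPM in FGO (mean over cells 0.264 CPM in NGO and 17.8 in GO1). *Ifitm3* (Fragilis), a surface marker of early germ cells, rose from 8.21 to 140 CPM, 17.004-fold (14.8 to 19.7). *Rbm46*, an RNA-binding protein gene of meiotic germ cells, fell from 45.996 to 0.972 CPM (44.8 to 1.59 as the mean over cells), and *Ddx4* (mouse vasa homologue) from 342 to 65.2 CPM, with 198 CPM in FGO. The germ cell RNA-binding protein gene *Dazl* had 483 CPM in NGO and in GO1.

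Transcription factor genes of the oocyte fell more often than they rose. The list held 11 genes, the growth factor gene *Gdf9* included, of which 9 reached 10 CPM, 1 rose (*Obox1*) and 5 fell (*Sohlh1*, *Tbpl2*, *Sohlh2*, *Figla* and *Lhx8*). Over all genes tested, 20.6% rose and 25.7% fell. The median log2 ratio was −1.04, against −0.15 over all genes tested. By the mean over cells, *Gata4* also rose and *Nobox* also fell (1237 to 419 CPM), 2 and 6 of 10 genes. The median was then −1.44 against −0.36. *Obox1*, an oocyte homeobox gene, rose from 9.96 to 231 CPM. *Sohlh1*, which acts in primordial follicles, fell from 374 to 0.336 CPM (392 to 0.693 as the mean over cells) and had 19.2 CPM in FGO, and *Tbpl2*, the oocyte paralogue of TATA-binding protein, fell from 177 to 14.5 CPM. *Sohlh1* and *Tbpl2*, like *Pou5f1*, had their highest level in NGO.

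**Figure D4:**
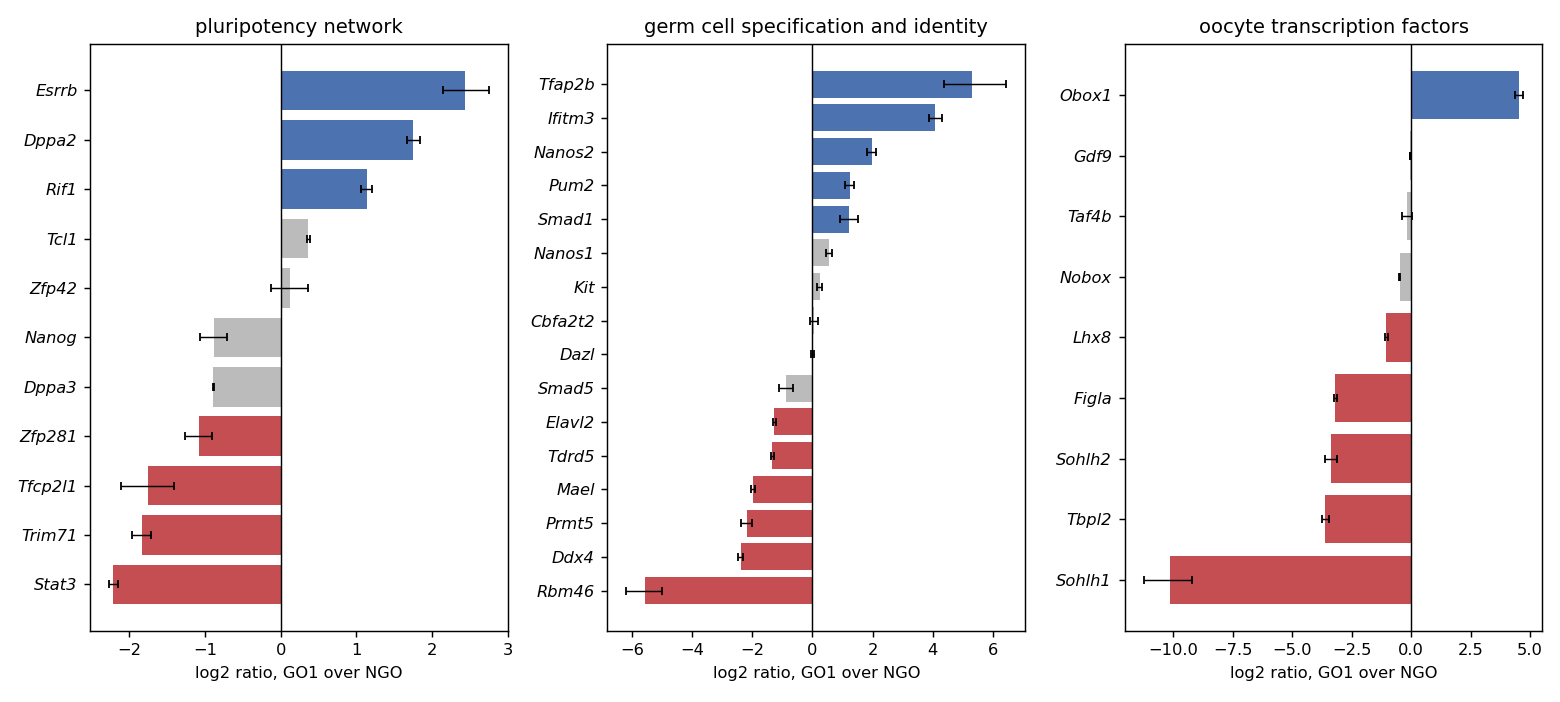
Log2 ratio of GO1 over NGO in the stage sums (x axis; each panel has its own scale) for the genes of 3 related lists that reached 10 CPM in either stage. Bars start at 0, error bars are 95% counting intervals, and blue, red and grey mark genes at least 2-fold higher, at least 2-fold lower and not past 2-fold; 3, 5 and 1 genes are higher and 4, 6 and 5 lower from left to right.

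The genes whose course over the 5 stages was most like that of a member were found among the 8671 genes that reached 10 CPM somewhere, ranked on the root mean square difference of log2(CPM + 1) after each gene was centred on its own mean. Closest to *Pou5f1* were *AY761184* (0.034), *Ndufv1* (0.049), a subunit gene of mitochondrial complex I, and *Crat* (0.062), the gene of carnitine acetyltransferase. *Ndufv1* had 298, 79.7, 83.3, 71.6 and 93.5 CPM. Closest to *Sall4* were *Cdk15*, *Mab21l2* and *Fam229b* (0.041 to 0.087), closest to *Lin28a* were *Atpaf1*, *Timm13* and *Nudcd1* (0.049 to 0.053), and closest to *Tfap2c* were *Otx1*, *Fam83d* and *Nucb2* (0.035 to 0.077).

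*Dppa5a* and *Dppa4* had their own neighbours. *Dppa5a* was nearest to the imprinted non-coding RNA gene *Kcnq1ot1* (0.077), to *Naprt* and to *Smad5*, a transducer of BMP signals, with 17.2, 9.31, 8.45, 13.6 and 22.02 CPM. The gene nearest to *Dppa4*, *Syt11*, lay farther off at 0.103, with 33.7, 33.3, 26.4, 16.2 and 8.58 CPM, followed by *Fam217a* (0.162) and *Stk32a* (0.229). No member was among the 3 nearest genes of another. With 3 genes taken from 8671, that does not set the members apart from genes at large. The closest pair of members was *Tfap2c* and *Dppa5a*, with a difference of 0.403. Each of these courses has 5 points from the same pooled stages. All were taken from the stage sums, in which the 10 deepest cells held 80.4% of the GO1 UMIs. The GO1 levels of *Lin28a* and *Tfap2c* depended on that weighting, and neighbours under other weightings were not sought.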

How the data were processed

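Single mouse oocytes of 5 growth stages were measured by single-cell RNA-seq in 4 libraries. The authors sorted reads by barcode, trimmed and mapped them to the mm9 transcriptome (Tophat), removed duplicates by UMI, filtered cells on detected genes, transcripts and ERCC share, and deposited raw UMI counts per gene and cell. The file with barcode sequences does not tie barcodes to cells, so barcodes shared between libraries could not be counted. Samples measured by iscCOOL-seq (accessibility and DNA methylation) were not analysed here.

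Here, UMIs of all 223 cells were summed per stage and scaled to CPM, with exact Poisson intervals for levels, exact binomial intervals for shares of cells and intervals of ratios derived from the exact binomial split of both counts. The precision follows from stage totals of 24976634 to 64311908 UMIs. No doublet caller was run on these hand-picked, washed oocytes. A test per library, planned with edgeR for a table that names libraries, was not possible. Alternatives were DESeq2 1.42.0 size factors, edgeR 4.0.16 TMM factors (both for scaling only), the mean over cells, cells thinned to 20000 UMIs, leaving out each stage's 10 deepest cells, dropping the filter on low counts, a minimum of 50 CPM and a 1.5-fold limit. Simulated Poisson counts, with planted changes larger than the limit, served to check that the size rule was computed as stated. They hold no spread between cells or libraries and do not measure its error in these data. The text names all members, for each member over 10 CPM the 3 genes of most similar course, and of each related list the 2 largest rises and falls past the rule, and the others named (*Nanog*, *Sox2*, *Dazl*, list members counted up to 6, and markers) were chosen after their values were seen. The members and lists were themselves chosen with earlier results of these data known.

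Gene positions come from GENCODE vM1 of NCBIM37 (mm9), where *Tfap2c* was not matched. Promoters come from RefSeq, where *Sall4*, *Tfap2c*, *Prdm14*, *Dppa4* and *Dppa5a* were not matched. Software was R 4.3.3, Python 3.11.15, scipy 1.17.1, pandas 2.3.3, numpy 2.4.6 and matplotlib 3.10.9.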

Additional observations from a re-analysis of the deposited data

How the results depend on the processing

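No paired analysis was possible because each stage is 1 pooled sample and the cells carry no replicate number shared between stages. DESeq2 and TMM factors left the same members changed in each step. They shifted every gene by 0.10 and 0.16 (log2) from NGO to GO1, 0.19 and 0.17 from GO1 to GO2, −0.15 and −0.09 from GO2 to GO3, and 0.08 and 0.17 from NGO to FGO, so directions of members within these shifts are not firm. From GO1 to GO2 they called 1.29% and 1.54% of genes against 3.14% in the sums, and DESeq2 split the calls into 14 higher and 82 lower, against 8 and 223 in the sums. The split of that step was 306 and 908 in the mean over cells, 602 and 1203 in thinned cells and, with the direction turned, 682 and 596 without the 10 deepest cells. From GO2 to GO3 DESeq2 gave 174 higher and 120 lower and TMM 201 and 100, against 245 and 74. From NGO to FGO TMM gave 1206 higher and 916 lower, against 920 and 1302.

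The mean over cells gave 4 changed members from NGO to GO1 against 2 in the sums (also *Lin28a* and *Prdm1*, with 56.6% of genes) and 2 from GO1 to GO2 against 0, with 16.5% of genes from GO1 to GO2 and 9.19% from GO3 to FGO. Without the 10 deepest cells of each stage, 4 members changed from NGO to GO1 (also *Lin28a* and *Tfap2c*, with 59.2% of genes), 1 from GO1 to GO2 (*Lin28a*, with 17.7% of genes) and 1 from GO2 to GO3 (*Dppa4*, with 7.54% of genes). Thinned cells, which by construction hold 520000 to 1120000 UMIs a stage, gave 4 members from NGO to GO1 (also *Lin28a* and *Tfap2c*, with 57.6% of genes), 3 from GO2 to GO3, and 2 in the last step, to FGO (*Pou5f1* and *Tfap2c*, without *Dppa4*), with 24.3%, 15.99% and 16.1% of genes in the steps after GO1. Without a filter on low counts, 5 members changed both from NGO to GO1 (with 53.4% of genes) and from NGO to FGO (36.8%), 1 from GO1 to GO2 and 3 from GO3 to FGO, with 14.9%, 16.5% and 20.9% of genes in the steps after GO1. A minimum of 50 CPM left 0 members from GO3 to FGO, and 0.968%, 1.84% and 3.38% of genes in those steps. The 1.5-fold limit gave 1, 2 and 4 members there, with 14.7%, 13.5% and 18.2% of genes, and 51.2% from NGO to FGO. Causes beyond the construction of each setting were not tested. *Pou5f1* and *Sall4* passed the limit from NGO to GO1 and from NGO to FGO under each of these settings, and *Dppa4* did from NGO to FGO under all but the 50 CPM minimum.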
